A study of Drosophila melanogaster with 54 samples.

Results

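Sarcomere protein genes encode the contractile and scaffolding proteins of striated muscle. Here 10 of them were followed in fly heads: Mhc, Prm, Mf, up, wupA, Tm1, Tm2, Zasp66, bt and sls. They were picked by symbol from a count table of 16719 genes, all 10 symbols were found, and all 10 were among the 9056 genes with enough reads to be tested. No expression value entered the choice, but earlier results from these libraries were known when the genes were listed. In a sarcomere, thick filaments of myosin slide past thin filaments of actin, calcium opens the thin filament to myosin through troponin and tropomyosin, and Z-discs with giant elastic proteins hold the filaments in register. The fly head holds the muscles of the proboscis and of the sucking pump of the pharynx, whereas the flight and leg muscles lie outside the head.

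The 12 libraries came from heads of Drosophila melanogaster and asked whether the insulator protein BEAF-32, which binds DNA at the borders of chromatin domains, takes part in the transcriptional response to warmth. Control flies carried the actin5C-gal4 driver alone, are labelled wild type and are of strain YW. Knockdown flies, also of strain YW by label, expressed a UAS-RNAi transgene against BEAF-32 under the same driver, which acts in most cells, so no tissue was targeted. Flies of both genotypes were reared at 25 °C and then kept for 3 days after eclosion at 18 °C or at 29 °C, with 12 h of light a day, which gave 4 groups of 3 libraries. Flies with the RNAi transgene but no driver are not among these groups, and sex and time of day are not given for them. No label says that the libraries of a group are separate cultures, so p-values measure a spread that may be technical.

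BEAF-32 stood at 32.2 to 39.1 CPM (counts scaled to library size) in the 6 control libraries and at 0.516 to 3.50 CPM in the 6 knockdown libraries. Depth ran from 2905211 to 7146191 counts per library, and the 10 genes took 0.218% to 0.572% of the counts. The tissue label held against markers of the eye, whose 6 listed genes summed to 22035 CPM or more in every library. A pair of libraries stood apart in muscle genes of the body. Control replicate 2 at 29 °C held 429.6 CPM of Act79B, the actin of tubular muscles such as those of the leg, 211 CPM of the flight muscle actin Act88F and 88.7 CPM of flightin (fln). Knockdown replicate 2 at 18 °C held 389 CPM of Act79B and 208 CPM of Scp1, a sarcoplasmic calcium-binding protein, but 7.75 CPM of Act88F and no count of fln. In the other 10 libraries Act79B lay between 28.8 and 128 CPM and fln between 0 and 0.811 CPM. The limit that a count of 0 allows, 3 counts, corresponds to 0.407 to 1.01 CPM over the 12 libraries. Separately, the dosage compensation RNA roX1 was low for its group in control replicate 2 at 18 °C and knockdown replicate 1 at 29 °C, and odorant-binding genes were high in control replicate 1 at 29 °C and knockdown replicates 2 and 3 at 18 °C. Results are therefore also given without these libraries where a call depends on them. Leaving out the 3 libraries high in odorant-binding genes kept knockdown replicate 1 as the only knockdown library at 18 °C, so that fit had no replicates there.

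**Figure D1:**
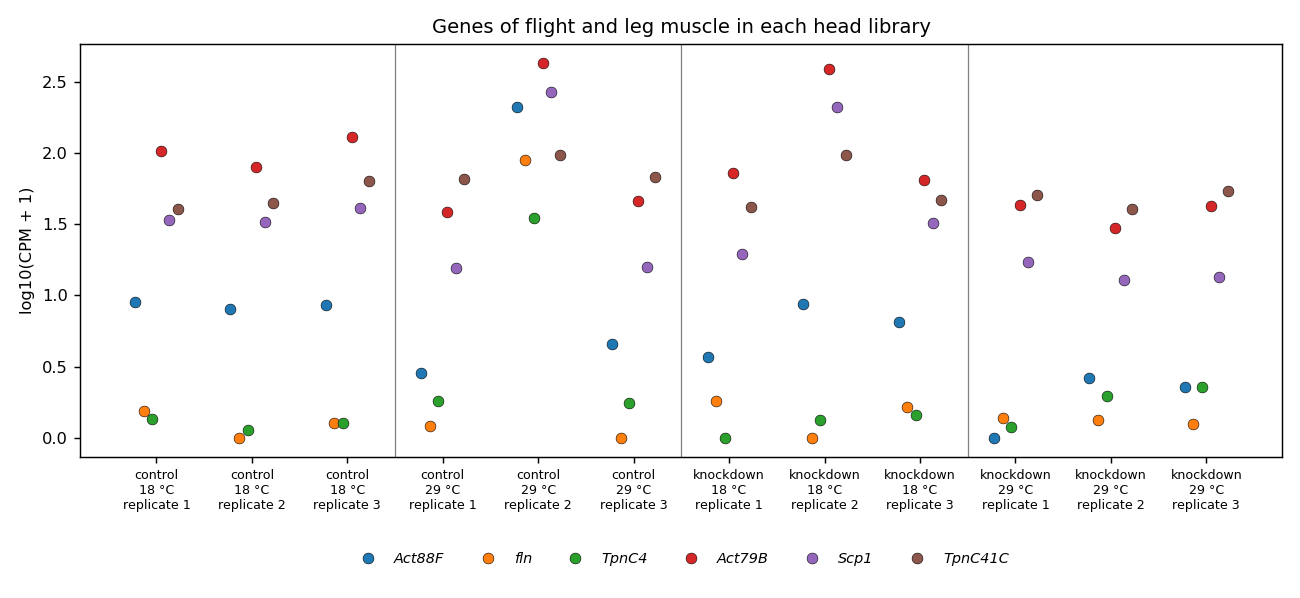
Level of 6 genes known from flight and leg muscle in each of the 12 libraries, as log10(CPM + 1), 1 point per gene and library. Control replicate 2 at 29 °C is high in all 6 genes, and knockdown replicate 2 at 18 °C is high in Act79B, Scp1 and TpnC41C but not in fln or TpnC4.

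The first comparisons asked how the sarcomere genes of the head differed between 29 °C and 18 °C within each genotype. All 10 genes fell in the warm in control flies and all 10 fell in knockdown flies, by 1.45-fold to 2.63-fold and by 1.43-fold to 2.48-fold. Across all tested genes 19.8% were called lower in control flies and 18.9% in knockdown flies (edgeR quasi-likelihood test, Benjamini-Hochberg adjusted p under 0.05), and 13.2% were called lower in both. The median log2 fold change of the 10 genes was -0.89 in control flies and -0.94 in knockdown flies, beside 0.00 and -0.01 over all tested genes. In heads analysed whole, fewer muscle cells and less RNA per muscle cell cannot be told apart.

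**Figure D2:**
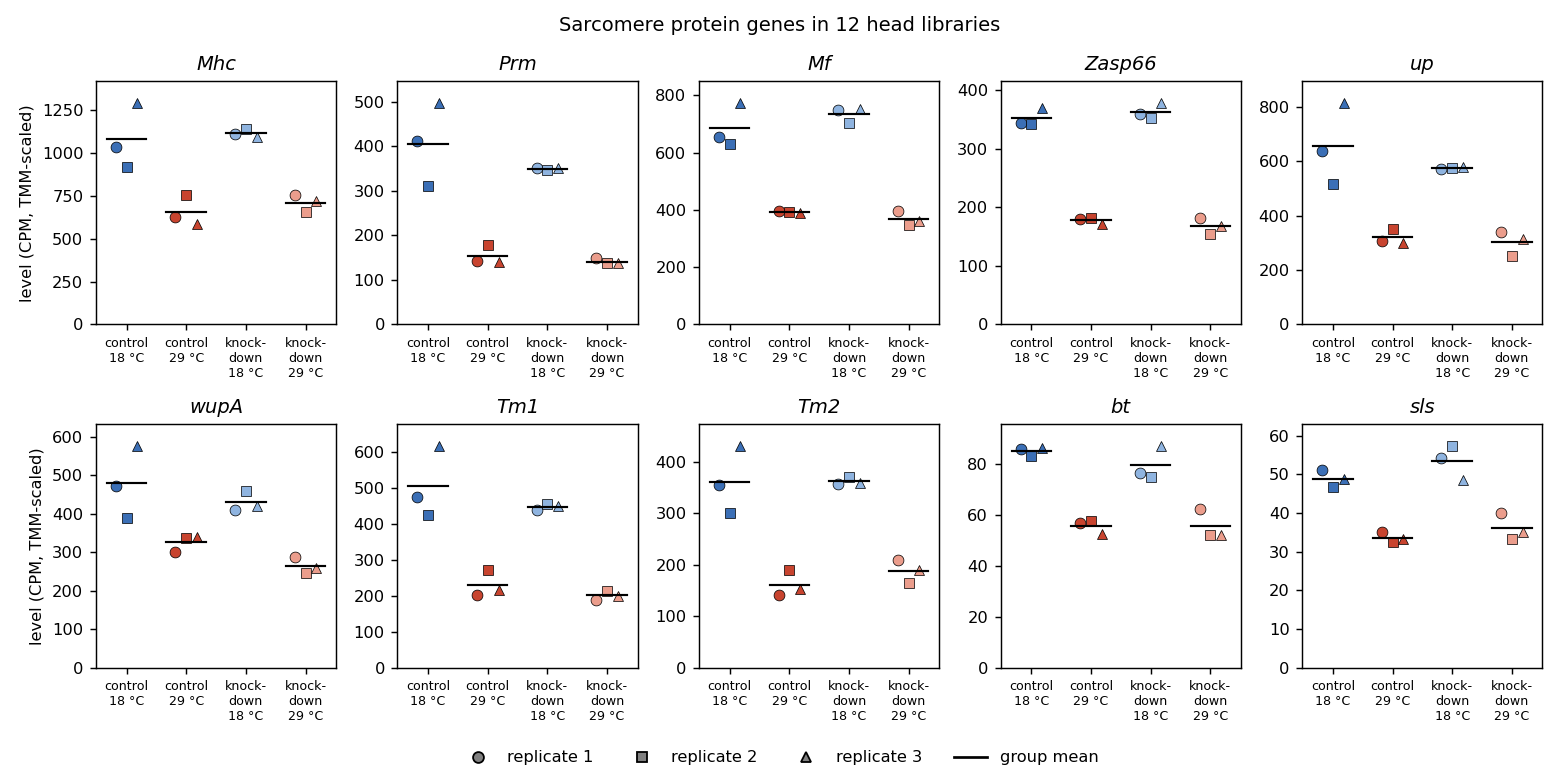
Level of each sarcomere protein gene (CPM with TMM-scaled library sizes, linear axis from 0) in the 12 libraries, with blue for 18 °C and red for 29 °C, darker for control and paler for knockdown flies, symbols for replicate numbers and a bar for each group mean. For every gene, all 6 libraries at 29 °C lie below all 6 at 18 °C.

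The thick filament genes came down together but by unequal amounts. Mhc, the heavy chain of muscle myosin, stood at 1034, 918 and 1289 CPM in control flies at 18 °C and at 625, 753 and 586 CPM at 29 °C, and in knockdown flies at 1108, 1140.0 and 1091 CPM at 18 °C and at 754, 657 and 718 CPM at 29 °C. Its 6 warm libraries lay below its 6 cool ones, with control replicate 2 at 18 °C the lowest of the cool. The fall was 1.65-fold in control flies (95% interval 1.41 to 1.93, edgeR adjusted p = 1.99e-05) and 1.57-fold in knockdown flies (95% interval 1.34 to 1.84, edgeR adjusted p = 7.83e-05). Prm encodes paramyosin, the core protein of invertebrate thick filaments, and a shorter form, miniparamyosin, that the gene count does not separate. It stood at 411, 311 and 497 CPM in control flies at 18 °C and at 142, 178 and 141 CPM at 29 °C, and in knockdown flies at 350.4, 347 and 350.4 CPM at 18 °C and at 148, 137 and 137 CPM at 29 °C. No warm library came near a cool one. The fall was 2.63-fold in control flies (95% interval 2.20 to 3.15, edgeR adjusted p = 1.89e-08) and 2.48-fold in knockdown flies (95% interval 2.07 to 2.97, edgeR adjusted p = 6.52e-08).

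Mf, myofilin of the thick filament, showed the same separation with little spread in the warm. It stood at 654, 629 and 773 CPM in control flies at 18 °C and at 397, 393 and 389 CPM at 29 °C, and in knockdown flies at 747, 703 and 751 CPM at 18 °C and at 395, 348 and 362 CPM at 29 °C. The log2 fold change was -0.80 (SE 0.0840) in control and -0.99 (SE 0.0845) in knockdown flies, with edgeR adjusted p = 1.96e-07 and 1.30e-08. The 3 thick filament genes therefore all passed the test in both genotypes, and in both Prm had the largest fall of the 3.

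Of the thin filament regulators, troponin T and both tropomyosins fell about as far as one another and troponin I fell less. Troponin T, the product of up (upheld), ties the troponin complex to tropomyosin. In control flies up stood at 638, 517 and 813 CPM at 18 °C and at 308, 352 and 299 CPM at 29 °C, and in knockdown flies at 572, 576 and 577 CPM and at 340.4, 252 and 314 CPM. The cool control libraries were widely spread and still lay above every warm library. The fall was 2.05-fold in control flies (95% interval 1.71 to 2.46, edgeR adjusted p = 1.52e-06) and 1.90-fold in knockdown flies (95% interval 1.59 to 2.29, edgeR adjusted p = 6.87e-06). Troponin I, the product of wupA (held up), is the inhibitory subunit of troponin. In control flies wupA stood at 473, 389 and 574 CPM at 18 °C and at 300.0, 336 and 339.9 CPM at 29 °C, and in knockdown flies at 409.9, 459 and 419 CPM and at 289, 245 and 259 CPM. The groups did not overlap, although the control group came close, with its lowest cool library at 389 CPM and its highest warm library at 339.9 CPM. The fall was 1.47-fold in control flies (edgeR adjusted p = 0.000342) and 1.62-fold in knockdown flies (edgeR adjusted p = 3.73e-05).

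Tropomyosins lie along the thin filament and cover the myosin sites of actin at rest. Tm1, which also encodes cytoplasmic tropomyosins that the count does not separate, stood at 474, 423 and 615 CPM in control flies at 18 °C and at 203, 271 and 216 CPM at 29 °C. In knockdown flies it stood at 439, 454 and 448 CPM and at 189, 213 and 200.3 CPM. The fall of Tm1 was 2.19-fold in control and 2.23-fold in knockdown flies, with edgeR adjusted p = 1.69e-07 and 1.55e-07. Tm2, a muscle tropomyosin, stood at 355, 300.2 and 430.3 CPM in control flies at 18 °C and at 142, 190.1 and 153 CPM at 29 °C, and in knockdown flies at 357, 370.5 and 359.6 CPM and at 209.6, 164 and 189 CPM. For both tropomyosins every warm library lay below every cool one. The fall of Tm2 was 2.23-fold in control flies (95% interval 1.88 to 2.66) and 1.93-fold in knockdown flies (95% interval 1.62 to 2.30), with edgeR adjusted p = 1.80e-07 and 2.68e-06.

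At the Z-disc and along the elastic filaments, Zasp66 fell by about as much as the troponin T gene, and the genes of the giant proteins by less, 1.43-fold to 1.53-fold. Zasp66, a PDZ domain protein of the Z-disc, stood at 345, 343 and 369 CPM in control flies at 18 °C and at 180.1, 181 and 172 CPM at 29 °C, and in knockdown flies at 359, 352 and 378 CPM and at 182, 154 and 168 CPM. Its libraries had the smallest SD of those among the 10 with a mean above 100 CPM in control flies at 18 °C (352 ± 14.6 CPM, SD, n = 3), and its adjusted p-values were the smallest of the 10 (edgeR, 4.03e-09 in control and 9.60e-10 in knockdown flies). The fall was 1.98-fold and 2.16-fold. The gene bt (bent) encodes projectin, a giant protein related to titin. It stood at 85.9, 83.2 and 86.5 CPM in control flies at 18 °C and at 56.9, 57.7 and 52.6 CPM at 29 °C, and in knockdown flies at 76.8, 75.1 and 87.1 CPM and at 62.6, 52.3 and 52.1 CPM. The gene sls (sallimus) encodes kettin and other titin-like proteins that link Z-disc and thick filament. It stood at 51.0, 46.7 and 48.8 CPM in control flies at 18 °C and at 35.1, 32.6 and 33.3 CPM at 29 °C, and in knockdown flies at 54.4, 57.3 and 48.6 CPM and at 39.9, 33.3 and 35.1 CPM. Neither giant gene overlapped between temperatures. The log2 fold changes were -0.61 (SE 0.0887, edgeR adjusted p = 1.23e-05) and -0.52 (SE 0.0914, edgeR adjusted p = 0.000129) for bt, and -0.53 (SE 0.0931, edgeR adjusted p = 0.0001) and -0.56 (SE 0.0953, edgeR adjusted p = 9.77e-05) for sls, in control and knockdown flies in that order.

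In all 10 genes the 6 libraries at 29 °C lay below the 6 at 18 °C whatever the genotype, which was the case for 11.1% of all tested genes. Within control flies the groups did not overlap, with 29 °C lower, for all 10 genes and for 24.9% of tested genes, and within knockdown flies for all 10 and for 23.2%. Control replicate 2 at 18 °C was the lowest cool library for 9 of the 10 genes, and knockdown replicate 2 at 18 °C was the lowest for bt. Every gene of the 10 was below its group mean in control replicate 2 at 18 °C, by 0.19 on the log2 scale on average, and 9 were above it in control replicate 3 at 18 °C, by 0.20 on average. The knockdown libraries at 18 °C lay from -0.01 to 0.01 of their group means by the same average. Control replicate 2 at 29 °C, the library rich in body muscle genes, was above its group mean for 8 of the 10 genes, by 0.12 on average. Knockdown replicate 1 at 29 °C, with Act79B at 42.4 CPM and Act88F at 0 CPM, was above its own for 9, by 0.11 on average. Without control replicate 2 at 29 °C and knockdown replicate 2 at 18 °C, all 10 genes were again called lower in both genotypes, and Prm had a log2 fold change of -1.51 in control flies.

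Marker genes of other cell types of the head moved with temperature as well, and their part in the fall of the sarcomere genes was not tested. Their counts are to be read beside 19.8% of all tested genes lower and 18.2% higher in the warm in control flies. In knockdown flies these shares were 18.9% and 16.6%. The summed level of 6 photoreceptor genes was 22035 to 22861 CPM in control flies at 18 °C and 38014 to 39084 CPM at 29 °C, and 25062 to 27261 and 38517 to 40117 CPM in knockdown flies, with 5 of the 6 called higher and 1 lower in each genotype. The summed level of 5 glial genes was 617 to 674 CPM and 362 to 441 CPM in control flies and 639 to 649 CPM and 358 to 403 CPM in knockdown flies, with 3 of 5 and 4 of 5 called lower. Of these, repo was called in knockdown flies only (log2 fold change -0.19 in control and -0.55 in knockdown flies) and moody in neither genotype. The 5 neuron genes summed to 474 to 522 and 562 to 612 CPM in control flies and to 501 to 509 and 599 to 618 CPM in knockdown flies, with 2 of 5 called higher in each. Of 5 fat body genes 3 were called lower in each genotype, and Yp1, a yolk protein, was called higher in control flies, while their sums overlapped between temperatures. The larval serum protein Lsp2 had a fall of 12.1-fold in control and 2.11-fold in knockdown flies, and fit one of 6.17-fold and 3.50-fold. Of 3 tested blood cell genes 2 were called higher in each genotype, with Hml up 1.69-fold and 1.93-fold, and sums over the 4 listed of 108 to 150 and 163 to 180.4 CPM in control and 97.6 to 117 and 146 to 153 CPM in knockdown flies. The dosage compensation RNA roX2, which is male-biased, was called higher by 6.31-fold in control and 5.56-fold in knockdown flies, and roX1 was called higher in control flies, where sex is not given. All 4 antennal genes were called lower in knockdown flies by edgeR, and 3 by DESeq2. Their sums in knockdown flies were 5.68, 104 and 65.2 CPM in cool libraries and 2.10 to 2.65 CPM in warm ones. The high sums are those of libraries noted above as high in odorant-binding genes. In control flies none of the 4 was called (log2 fold changes 0.41 to 1.28). The 10 sarcomere genes together summed to 3959 to 5496 CPM and 2383 to 2745 CPM in control flies, and to 4475 to 4534 CPM and 2255 to 2609 CPM in knockdown flies.

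The sarcomere genes did not fall in proportion to one another. Each gene was set against the mean of the 10 on the log2 scale, and the difference between temperatures was averaged over genotypes. Relative to that mean, Prm fell by 0.46, Tm1 by 0.25, Tm2 by 0.17 and Zasp66 by 0.16. The giant protein genes sls and bt and the troponin I gene wupA kept more of their level, with relative differences of 0.34, 0.32 and 0.27, and Mhc had 0.20. In an exact two-sided permutation test of temperature within genotype over the 12 libraries, run for each of the 10 genes, p was 0.005 for Prm, Tm1, Mhc, wupA, bt and sls, the smallest that its 400 arrangements can give. It was 0.01 for Tm2 and 0.02 for Zasp66. The relative differences of up (-0.09, exact permutation p = 0.165) and Mf (-0.01, exact permutation p = 0.91) did not pass. These p-values are unadjusted, and the reference is itself made of the genes compared. With Mhc as the reference, Prm, Tm1, Tm2, Zasp66, up and Mf fell further than Mhc (exact permutation p = 0.005 to 0.035), while the relative differences of sls (0.14, exact permutation p = 0.19), bt (0.12, exact permutation p = 0.195) and wupA (0.06, exact permutation p = 0.495) no longer passed.

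**Figure D3:**
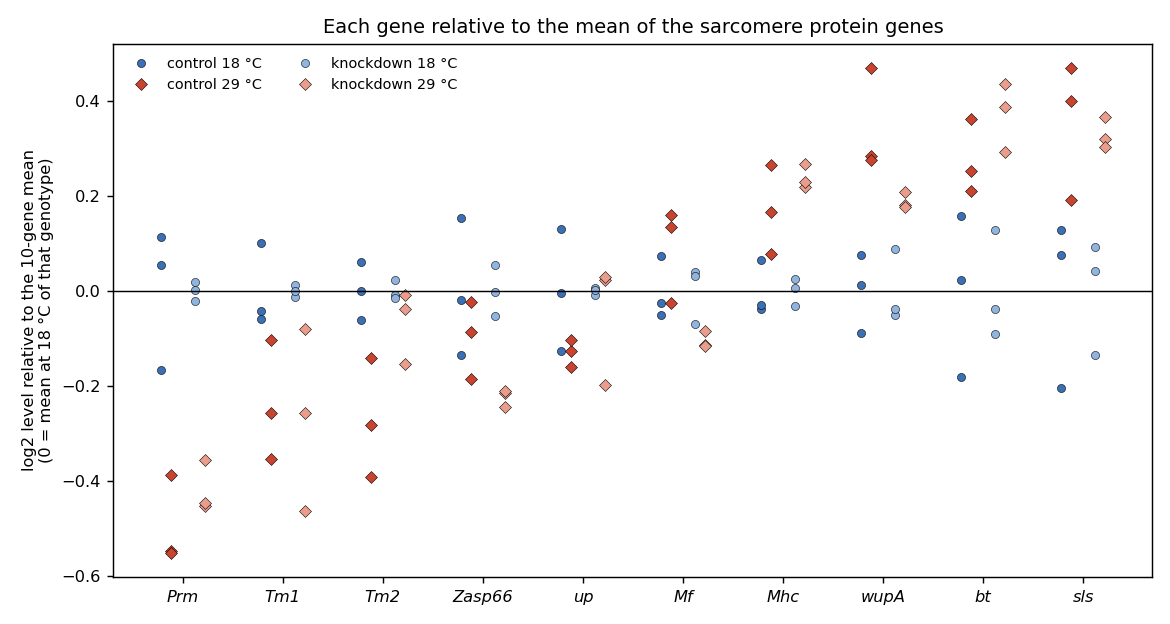
Log2 level of each sarcomere protein gene relative to the mean of the 10 genes, set to 0 at the 18 °C mean of each genotype, with circles for libraries at 18 °C and diamonds for libraries at 29 °C. All warm libraries of Prm lie below its cool ones, and those of sls, bt, wupA and Mhc lie above their cool ones, in both genotypes.

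The next comparisons asked whether BEAF-32 knockdown altered the sarcomere genes at either temperature. At 18 °C none of the 10 genes passed the edgeR test, none had an unadjusted p under 0.05, and DESeq2 called none, while 14.1% of all tested genes were called in either direction. The log2 fold changes, knockdown against control, ran from -0.21 for Prm (406 ± 93.1 CPM in control and 349 ± 2.24 CPM in knockdown flies, SD, n = 3) to 0.12 for sls (48.8 ± 2.17 and 53.4 ± 4.41 CPM). Their 95% intervals together reached from -0.47 to 0.31. For all 10 genes the libraries of the 2 genotypes overlapped at 18 °C, whereas 14.6% of tested genes were lower and 14.2% higher in knockdown flies with no overlap. Prm was called lower without control replicate 2 at 18 °C (log2 fold change -0.38, edgeR adjusted p = 0.0180), and without both libraries low in roX1 so was up (log2 fold change -0.35, edgeR adjusted p = 0.0448).

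At 29 °C none of the 10 genes passed the edgeR test and DESeq2 called none, beside 14.7% of all tested genes called in either direction, and 1 had an unadjusted p under 0.05. That gene was wupA, at 300.0, 336 and 339.9 CPM in control and 289, 245 and 259 CPM in knockdown libraries. All 3 knockdown libraries lay below all 3 control libraries, which was the case for 15.6% of tested genes. The log2 fold change of wupA was -0.30 (95% interval -0.53 to -0.07, edgeR adjusted p = 0.0710). It passed under 6 of the 21 other settings tried, with log2 fold changes of -0.30 to -0.38. The other 9 genes ran from -0.20 for Tm1 to 0.21 for Tm2, and all 10 intervals together reached from -0.53 to 0.47. Ordered by level, the 2 groups at 18 °C stood first for every gene, and neighbouring groups at 1 temperature did not differ beyond the test for any of them.

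**Figure D4:**
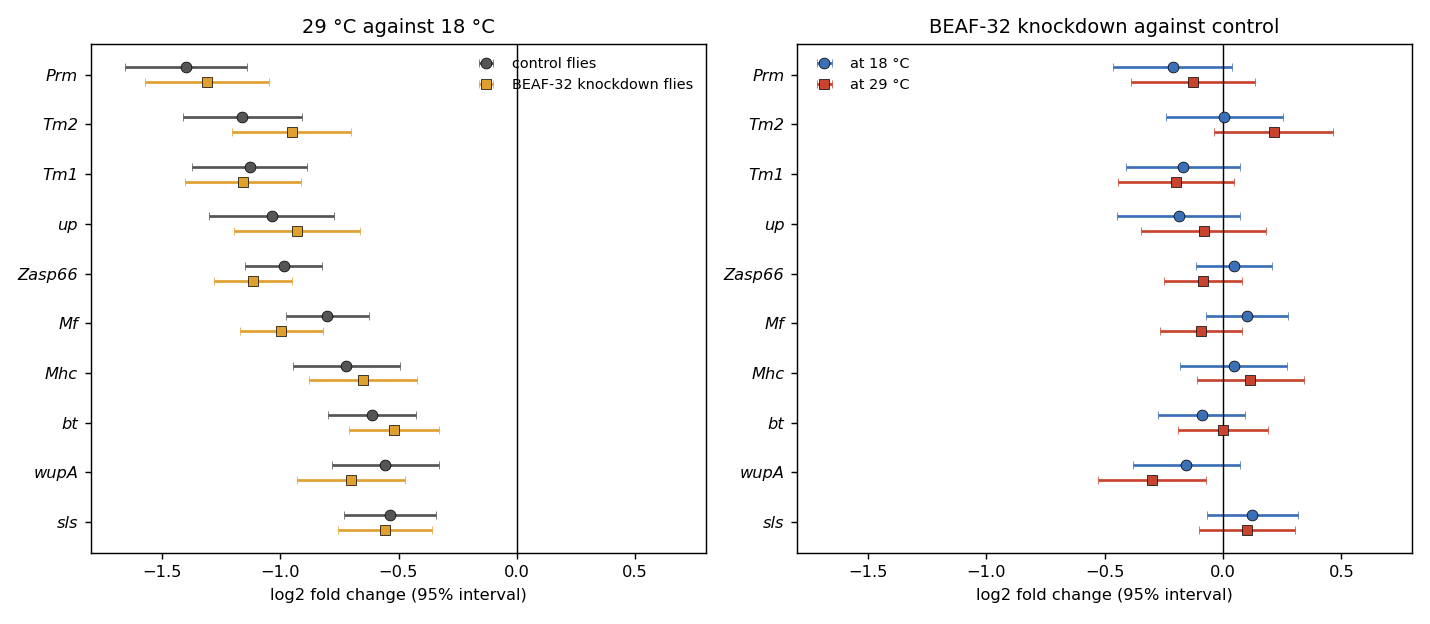
Log2 fold change with its 95% interval for each sarcomere protein gene, at left for 29 °C against 18 °C in control flies (grey circles) and knockdown flies (orange squares), at right for knockdown against control at 18 °C (blue circles) and 29 °C (red squares). All temperature intervals lie below 0, and 19 of the 20 knockdown intervals include 0, the exception being wupA at 29 °C.

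The interaction asked whether the temperature response of a gene differed between genotypes. None of the 10 genes passed (edgeR and DESeq2 both called none, with none under an unadjusted p of 0.05), beside 2.31% of all tested genes. The difference of the log2 fold changes, knockdown minus control, ran from -0.19 for Mf (95% interval -0.44 to 0.05) to 0.21 for Tm2 (95% interval -0.14 to 0.56). The 10 genes were split evenly by sign, 5 below 0 and 5 above.

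Genes of the same machinery that are not among the 10 were read from a list of other sarcomere genes, of which 24 were in the table and 20 were tested. In control flies 11 of the 20 fell in the warm and 3 rose, beside 19.8% and 18.2% of all tested genes. In knockdown flies 12 fell and none rose, beside 18.9% and 16.6% (no rise at an unadjusted p under 0.05 in edgeR, none called by DESeq2). Among the 12 was Act79B (log2 fold change -2.20). Its call was lost with DESeq2 and without knockdown replicate 2 at 18 °C (log2 fold change -0.87, edgeR adjusted p = 0.354). Without that library and control replicate 2 at 29 °C it was called (log2 fold change -0.86, edgeR adjusted p = 0.000882). TpnC25D, a troponin C that binds calcium, had a fall of 3.61-fold in control flies, from 623 ± 103 to 172 ± 0.975 CPM (SD, n = 3), and of 3.57-fold in knockdown flies, from 546 ± 38.3 to 153 ± 15.4 CPM (edgeR adjusted p = 2.40e-11 and 4.10e-11). Both values are beyond those of all 10 genes above, a comparison that was not tested. Muscle actin Act57B, alpha-actinin (Actn) of the Z-disc, the Z-disc protein Zasp52 and the myosin light chains Mlc1 and Mlc2 had log2 fold changes of -1.31, -1.30, -1.13, -1.27 and -1.24 in control flies and of -1.16, -1.32, -1.19, -1.15 and -1.23 in knockdown flies, and all passed in both. Those that rose in control flies were Act88F, TpnC41C and unc-45, the last a myosin chaperone, which went from 15.9 ± 2.41 to 25.6 ± 1.92 CPM (edgeR adjusted p = 0.000556). Act88F stood at 1.84, 211 and 3.56 CPM in the warm control libraries and at 7.06 to 7.96 CPM in the cool ones. Without control replicate 2 at 29 °C its direction turned to lower (log2 fold change -1.45, edgeR adjusted p = 0.0161) and TpnC41C was no longer called (edgeR adjusted p = 0.140). The count without that library was 12 lower and 1 higher. Without that library and knockdown replicate 2 at 18 °C, TpnC41C was called higher (log2 fold change 0.47, edgeR adjusted p = 0.0169).

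**Figure D5:**
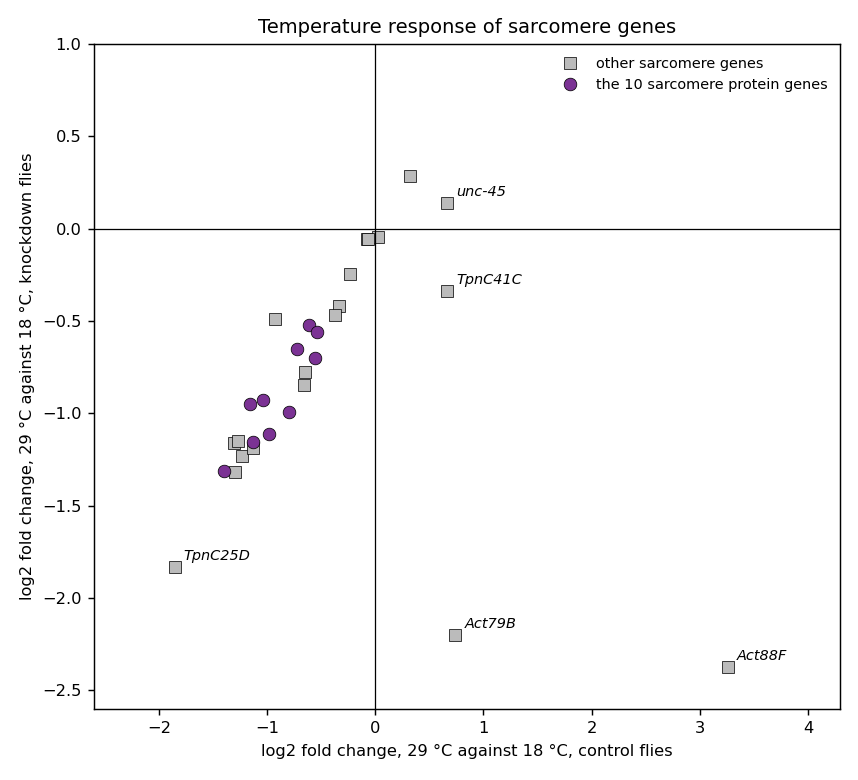
Log2 fold change of 29 °C against 18 °C in control flies (x) and knockdown flies (y) for the 10 sarcomere protein genes (purple circles) and 20 other tested sarcomere genes (grey squares). All 10 lie at the lower left, TpnC25D lies further out, and Act79B and Act88F, which are high in single libraries, lie at the lower right.

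Several knockdown calls among these other sarcomere genes changed with the libraries included. Any excess over the share of all tested genes was not tested. At 18 °C 4 of the 20 were lower in knockdown flies and 1 higher, beside 7.5% and 6.63% of all tested genes. At 29 °C 8 were lower and 1 higher, beside 7.56% and 7.14%. Without control replicate 2 at 29 °C, the calls were 2 lower and none higher. The calls of Act88F, Act79B and TpnC41C were among those lost without that library. The count of 4 at 18 °C became 2 without control replicate 3 or knockdown replicate 1 and 1 without knockdown replicate 3, and the calls of Zasp52 and of the actin Act87E were among those lost. The count of 8 at 29 °C became 4 or 5 without control replicate 3 or any 1 of the knockdown libraries, and 4 with DESeq2. The shares above are those of the reported model only. Calls over all genes changed between fits as well. Mlp84B, a muscle LIM protein of the Z-disc region, stood at 122, 121 and 142 CPM in control and 183, 182 and 172 CPM in knockdown libraries at 18 °C. The knockdown libraries were all higher, by 0.48 on the log2 scale (edgeR adjusted p = 0.000684), and the call held under every other setting tried. At 29 °C unc-45 stood at 26.9, 23.4 and 26.4 CPM in control and 12.9, 14.4 and 10.1 CPM in knockdown libraries. The knockdown libraries were all lower, by 2.02-fold (edgeR adjusted p = 3.76e-05), and this call held likewise. None of the 20 genes passed for the interaction (edgeR, 5 at an unadjusted p under 0.05, and none called by DESeq2).

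The counts of the next 3 lists stand beside 19.8% of all tested genes lower and 18.2% higher in the warm in control flies, and 18.9% and 16.6% in knockdown flies. Of 8 tested genes of calcium handling and neuromuscular receptors, 3 were lower and 1 higher in control flies, and 5 lower and none higher in knockdown flies (2 higher at an unadjusted p under 0.05, none called by DESeq2). Among the 5 was Scp1, whose call was lost with DESeq2 and without any 1 of the knockdown libraries at 29 °C. The call was also lost without knockdown replicate 2 at 18 °C (edgeR adjusted p = 0.513). Without that library and control replicate 2 at 29 °C, Scp1 was called lower (log2 fold change -0.90, edgeR adjusted p = 0.00131). SERCA, the calcium pump of the sarcoplasmic reticulum, had log2 fold changes of -1.41 and -1.30, and Argk, the arginine kinase that buffers ATP, had -0.74 and -0.65. The gene that was higher in control flies, the glutamate receptor subunit GluRIIC, stayed at or below 5.19 CPM. Of 6 tested regulators of muscle transcription and splicing, 3 were lower in each genotype, of which DESeq2 called 1 in control flies. The splicing factor mbl (muscleblind) had log2 fold changes of -0.53 and -0.57, and sr (stripe), a transcription factor of tendon cells, had -0.59 and -0.90. The call of sr in control flies was lost with DESeq2 and without single libraries (edgeR adjusted p up to 0.109). The call of how in control flies (log2 fold change -0.38) was lost with DESeq2 and without any single control library. The call of aret in knockdown flies (log2 fold change -0.35) was lost without knockdown replicate 3 at 18 °C or knockdown replicate 1 at 29 °C. That of mbl in knockdown flies was lost without the 3 libraries high in odorant-binding genes, a fit with no replicates of that genotype at 18 °C. A list of 11 genes of the cytoplasmic cytoskeleton may include genes also expressed in muscle, which was not tested. Of these 11, 3 were lower and 2 higher in control flies and 1 was lower and none higher in knockdown flies (1 higher at an unadjusted p under 0.05, none called by DESeq2). That gene was the filamin cher, with log2 fold changes of -1.18 and -1.14. On knockdown at 29 °C, where 7.56% of all tested genes were lower, 3 of the 8 calcium and receptor genes were lower, none of which was called without control replicate 2 at 29 °C, and 2 of the 11 cytoskeletal genes, the profilin chic and the myosin light chain Mlc-c, were lower under every other setting too.

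The tested genes whose levels most resembled those of the 10 were found by Pearson's r, over the 12 libraries, with the mean of the standardised log2 levels of the 10, among 7780 other genes with a mean of at least 5 CPM. The values describe libraries that share temperature groups and depth, and no test was made. Actn came first (r = 0.995), followed by Mlc2 (r = 0.994), TpnC25D (r = 0.989), SERCA (r = 0.988) and Mlc1 (r = 0.984). The next were fau and CG45078 (both r = 0.982), whose counts were nearly equal in every library so that their reads cannot be told apart, and l(1)G0156 (r = 0.981), a gene that the RefSeq table names Idh3a, a subunit of mitochondrial isocitrate dehydrogenase. Act57B ranked 12th (r = 0.978), whereas TpnC41C (r = -0.11) and unc-45 (r = -0.41) did not run with the 10.

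Genes that overlap the 10 had far fewer counts than they did. In the RefSeq annotation 4 of the 10 genes overlap others, and no gene in the table had counts nearly equal to any of the 10. Over all libraries Mf had 31045 counts beside 442 for Gyc88E, Zasp66 had 15176 beside 29 for Cdc6, and Tm1 had 19652 beside 1751 for l(3)neo43 and 69 for CG45218. For sls, 2467 counts stood beside 234 for the antisense RNA CR42860, and since no strand setting is given, their reads cannot be told apart.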

How the data were processed

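RNA of 12 head libraries, described in the labels as 3' RNA-seq of polyA RNA, was analysed, and 42 other samples of the series were not used here. The table holds counts of reads per gene as the authors deposited them, with no scaling. The submitters' processing notes name STAR, TopHat2 and the build dm3. Versions, counter, annotation and strand setting are not given in the sources used here. Gene names came from a RefSeq table of another build, and overlaps from its coordinates.

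Groups and replicate numbers came from the labels. In edgeR 4.0.16 (R 4.3.3), low genes were removed with filterByExpr (minimum count 10, minimum total 15), TMM scaled the libraries, and a quasi-likelihood model of 4 groups took in all 12 libraries, with Benjamini-Hochberg adjustment over 9056 genes and a threshold of 0.05. CPM use TMM-scaled sizes. Standard errors come from F statistics, intervals are 95% t intervals, and the floor of 3 counts covers counting error only. Relative levels used log2 CPM with a prior count of 2 and an exact permutation test. Its design named an adjustment over the 10 genes, which is left out because the genes were listed with results known.

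The 10 genes and the other lists were chosen with earlier results of these data known. Named besides the 10 and BEAF-32 were up to 4 genes per list and comparison with the smallest adjusted p, and the 8 genes most like the 10. Act79B was named after its values were seen. Act88F, Scp1, TpnC41C and unc-45 were also given in comparisons beyond that rule, as were markers of cell types. Alternatives were DESeq2 1.42.0, RLE factors, library totals, no filter, only the groups compared, a replicate block, each library left out, and sets of libraries that stood apart. The model was tested on simulated counts.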

Additional observations from a re-analysis of the deposited data

How the results depend on the processing

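All 10 sarcomere genes were called lower in the warm in both genotypes under all 21 other settings, with log2 fold changes of -1.56 to -0.41 in control and -1.45 to -0.45 in knockdown flies (adjusted p up to 0.00547 and 0.0176, edgeR or DESeq2), and no call changed sign. Library totals alone shifted the median of all genes by -0.10 and -0.15 in these comparisons, and the 10 genes stayed below that shift. Sarcomere genes called lower by knockdown at 18 °C were 0 to 1 when single libraries were left out (Prm without control replicate 2 at 18 °C) and 2 without both libraries low in roX1. At 29 °C the count was 0 to 1 when single libraries were left out (wupA without control replicate 2 or 3 at 18 °C), and 1, again wupA, with library totals only, with no filter, with only the 2 groups compared and without both libraries low in roX1. For wupA the adjusted p then ran from 0.0112 to 0.0339, and the cause was not tested. Uncalled log2 fold changes changed sign in 13 of 210 values for knockdown at each temperature and in 16 of 200 for the interaction. Relative to Mhc in place of the mean of the 10, Mf had -0.21 (exact permutation p = 0.035) and up -0.29 (exact permutation p = 0.005), both now past 0.05, while bt (0.12), sls (0.14) and wupA (0.062) were no longer past it. Without single libraries the relative difference of up ranged from -0.12 to -0.052, and its p reached the threshold without control replicate 2 at 18 °C (-0.12, exact permutation p = 0.05).

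The replicate number as a block left the counts of sarcomere genes at 10 and 10 lower for temperature and 0 for both knockdown comparisons and the interaction. Deviations of same-numbered libraries from their group means were only weakly correlated (-0.08 to 0.03). Taken after centring within groups of 3 libraries, these correlations cannot decide whether the numbers mark a shared batch. Counts over all genes moved by over 1.5 times in a few settings, for the interaction to 169 lower and 254 higher with no filter, beside 83 and 126. Leaving out the 3 libraries high in odorant-binding genes left no replicates of knockdown flies at 18 °C, so counts from that fit are not given. With library totals 910 genes were higher in the warm in knockdown flies, beside 1507 in the model reported. With the same scaling 373 were higher on knockdown at 29 °C, where DESeq2 gave 419, leaving out control replicate 3 at 29 °C gave 388, and the model reported gave 647. Leaving out single libraries brought the interaction to 42 to 54 lower in 7 cases and to 76 higher without control replicate 3 at 29 °C.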
